A study of Mus musculus with 2 samples.

Results

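Mbp (ENSMUSG00000041607.17), the gene of myelin basic protein, was followed through a long-read RNA sequencing experiment on the left cerebral cortex of mice. Every row of the 2 deposited count tables that carried the gene name Mbp was taken, with the exon positions of each row's transcript model from the deposited annotations. Mbp was thus 1 of 18907 annotated genes with reads in either library. It held 68 models out of 132801 in replicate 1, and 62 out of 133303 in replicate 2. All animals were adults of strain B6NCrl aged 6 months, given elsewhere in the labels as C57BL/6, and no allele, agent or treatment is named. Some label fields call the tissue male, while the field for sex says it was not collected. The 2 libraries are biological replicates 1 and 2 of a single group, and nothing was compared between conditions. Their tissue samples share a donor record and are not stated to come from separate animals, so the spread between the libraries may be technical. Total RNA of whole tissue was sequenced, in which fewer oligodendrocytes and less Mbp RNA per cell cannot be told apart.

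Myelin basic protein is made by oligodendrocytes, the myelinating glia of the brain, and holds the cytoplasmic faces of the myelin membrane together. Mice that lack it, such as shiverer mice, form almost no compact central myelin. The gene has a pair of transcription units. The classic unit gives the myelin proteins, which differ by the presence of exons 2, 5 and 6, and the Golli unit starts far upstream and is known from neurons, oligodendrocytes and T cells. Classic Mbp RNA is carried along oligodendrocyte processes and translated at the myelin sheath. A long read can cover a spliced RNA of this size from end to end, so exon choices that lie far apart can be read on the same molecule.

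In the GENCODE M21 annotation on mm10, Mbp covers chr18:82475146-82585637 on the plus strand, a span of 110492 bases. The classic unit has 7 exons, numbered here from its own start. Exon 1 is 281 bases long with 171 coding bases, and exon 7 is 1526 bases long, of which 42 are coding and 1484 follow the last codon before the stop. Between them lie exon 2 (78 bases, chr18:82561778-82561855), exon 3 (102 bases), exon 4 (36 bases), exon 5 (33 bases, chr18:82575601-82575633) and exon 6 (123 bases, chr18:82578936-82579058). Exons 2, 5 and 6 hold 26, 11 and 41 whole codons, so leaving any of them out keeps the reading frame. The first Golli exon starts 79324 bases upstream of the classic start. Of 16 annotated transcripts, 11 start at classic exon 1, 4 start at the Golli exon and 1 starts further downstream.

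Mbp was among the abundant RNAs of both libraries. Replicate 1 held 4171 Mbp reads among 1306424, and replicate 2 held 3314 among 1304133, which is 0.319% and 0.254%. Scaled to a library total of 1000000 reads (CPM), these are 3193 and 2541 CPM, with a mean of 2867 ± 461 CPM (SD, n = 2). Among 11822 nuclear genes with at least 10 reads over both libraries, Mbp ranked 17 by mean CPM. Divided by the read-weighted mean length of the gene's models, 1861 bases, the level was 1541 CPM per kilobase and ranked 52. A long read is counted once whatever its length, so this second rank is not a corrected level. The log2 ratio of replicate 2 over replicate 1 was -0.33. The exact binomial test, two-sided and given both library sizes, gave an adjusted p of 7.02e-21 (Benjamini-Hochberg over 11838 genes), a difference beyond counting noise. Mbp was not called, since calls also needed a 2-fold difference. By that rule 5.44% of the tested genes were lower in replicate 2 and 1.61% were higher, and by the adjusted p alone 8.11% were lower and 4.72% higher. These p-values set 2 libraries against counting error and say nothing of animals.

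**Figure D1:**
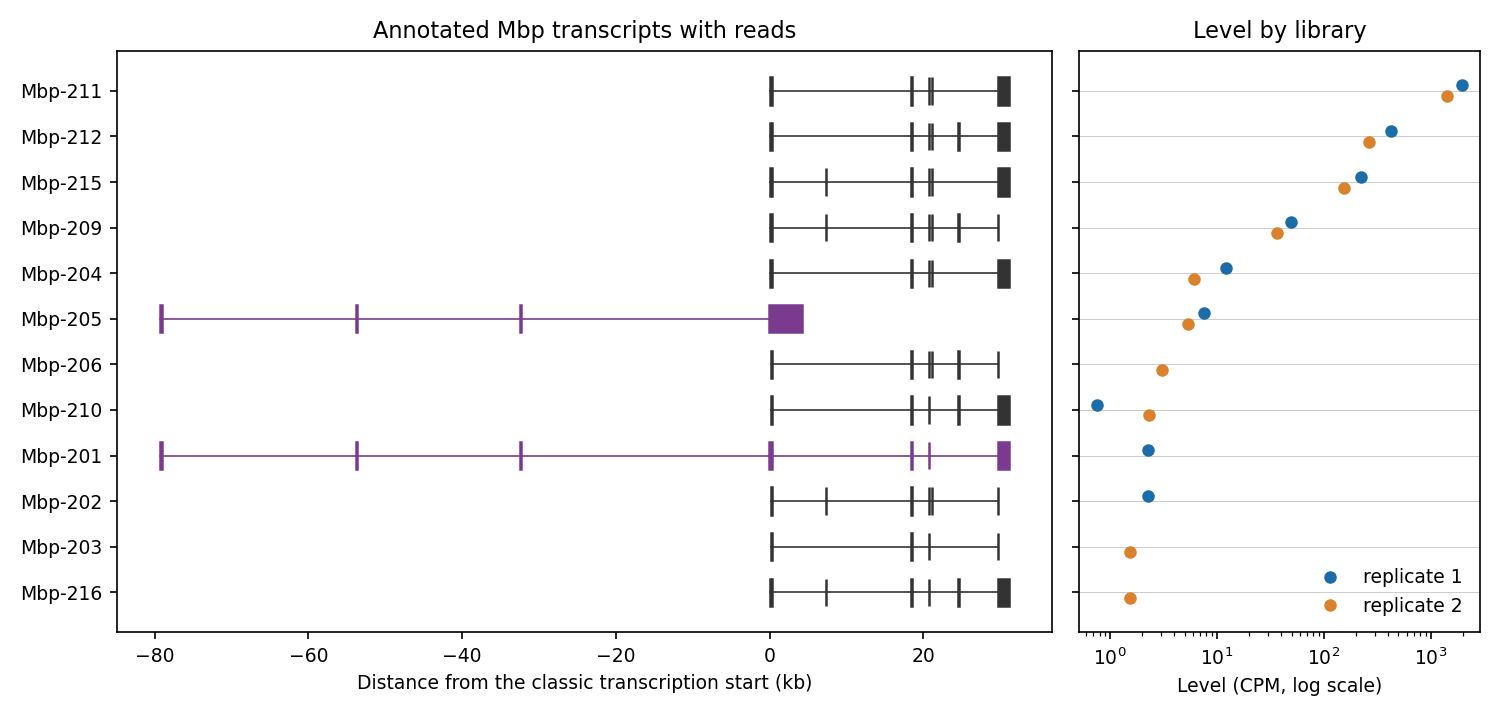
Annotated Mbp transcripts with reads, drawn as exons (boxes) by distance in kb from the classic start (left; classic black, Golli purple; outlines widen the shortest exons), and their level in CPM on a log axis in each library (right; no point where a library had 0 reads). Mbp-211 lies highest at 1947 and 1414 CPM, and the Golli transcripts Mbp-205 and Mbp-201 lie under 10 CPM.

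Nearly all complete Mbp RNA was classic RNA of 4 forms. Reads that matched the whole intron chain of an annotated transcript numbered 3492 in replicate 1 and 2469 in replicate 2. Of these, 99.1% (95% Clopper-Pearson interval 98.7 to 99.3) and 98.9% (98.5 to 99.3) lay on 4 classic transcripts, the ones that held at least 1% in each library. All 4 hold exons 1, 3, 4, 5 and 7 and differ in their introns only by exons 2 and 6, while Mbp-209 is also annotated with a shorter exon 7. The other annotated transcripts shared 33 and 26 reads. Each interval comes from the reads of a single library and covers counting error only. The reads carry no molecular identifiers that would mark copies of the same molecule, so the intervals may be too narrow even for that.

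The leading form was Mbp-211, with exons 1, 3, 4, 5 and 7. Its 128 codons encode a protein computed at 14.2 kDa, the form known as the 14 kDa isoform, which is the main one in adult mouse myelin. Replicate 1 held 2544 reads of it and replicate 2 held 1844, or 1681 ± 377 CPM. Its share of the reads on known transcripts was 72.9% (71.3 to 74.3) in replicate 1 and 74.7% (72.9 to 76.4) in replicate 2, with a mean of 73.8% ± 1.30 (SD, n = 2). The level thus differed more between the libraries than the share did. Fisher's exact two-sided test over 3956 genes gave an adjusted p of 1.0 for the leading share of Mbp (unadjusted p = 0.114, difference 1.83 percentage points). In that test 1.11% of genes were called.

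Mbp-212 adds exon 6 and encodes 169 residues at 18.5 kDa. It had 557 reads (16.0%) in replicate 1 and 348 reads (14.1%) in replicate 2. Mbp-215 has exon 2 in place of exon 6 and encodes 154 residues at 17.2 kDa, and it had 293 reads (8.39%) and 203 reads (8.22%). Mbp-209 has all 7 exons and encodes 195 residues at 21.5 kDa, with 65 reads (1.86%) and 48 reads (1.94%). The order of these 4 forms was the same in both libraries and their intervals did not overlap within a library. All 4 proteins are basic: arginine and lysine make up 18.3% to 18.8% of the residues, with 24 such residues against 8 aspartates and glutamates in the product of Mbp-211.

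The remaining annotated classic forms were rare. Mbp-204, in which a longer exon 5 adds 66 bases, had 16 reads in replicate 1 and 8 in replicate 2. Mbp-206, with the long exon 5 and exon 6, had 0 and 4 reads, and Mbp-202, with exon 2 and the long exon 5, had 3 and 0. The forms without exon 5 were Mbp-210 (with exon 6) at 1 and 3 reads, Mbp-203 at 0 and 2 reads, and Mbp-216 (with exons 2 and 6) at 0 and 2 reads. Mbp-207, Mbp-208, Mbp-213 and Mbp-214 had 0 reads in both libraries, which allows up to 3 reads, or 2.30 CPM, in each. At counts this low no difference between the libraries was detectable.

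**Figure D2:**
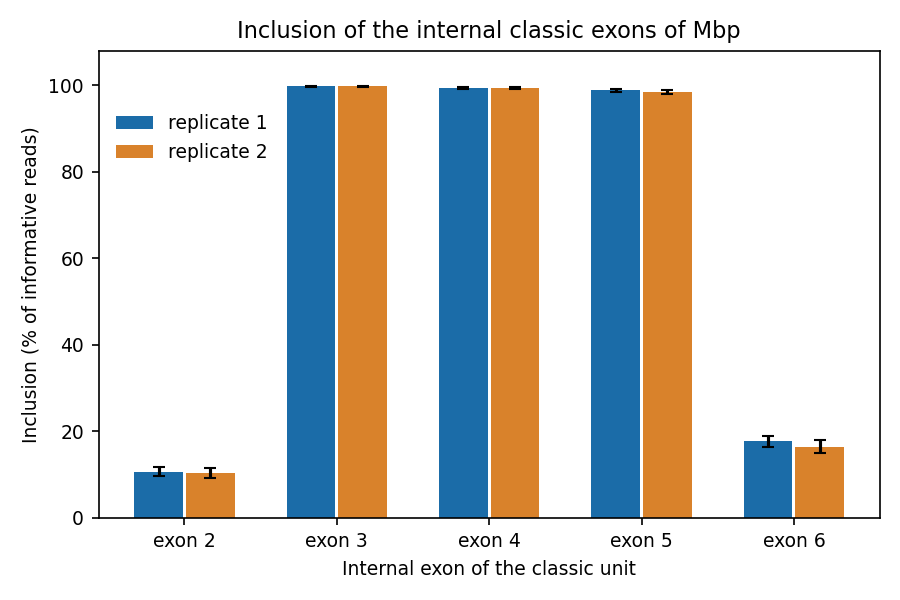
Inclusion of the internal classic exons of Mbp, as the percentage of reads on models that hold the exon among reads informative for it, in each library, with 95% Clopper-Pearson intervals. Exons 3, 4 and 5 lie above 98% in both libraries, while exon 2 lies near 10% and exon 6 near 17%.

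Counted over all models, known or not, the exon choices fell into constant and variable exons. Exon 2 marks the isoforms of Mbp that can enter the nucleus and that are known from early stages of oligodendrocyte maturation. It was present in 380 of 3578 informative reads in replicate 1, or 10.6% (9.63 to 11.7), and in 260 of 2533 in replicate 2, or 10.3% (9.11 to 11.5). Exon 6, which lies in the later part of the coding region, was present in 643 of 3630 reads, or 17.7% (16.5 to 19.0), and in 423 of 2568 reads, or 16.5% (15.1 to 18.0). The means were 10.4% ± 0.252 for exon 2 and 17.1% ± 0.878 for exon 6 (SD, n = 2 each). Exon 6 was thus used more often than exon 2 in both libraries, with intervals that did not overlap.

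Exon 5 was present with its annotated short form in 98.9% and 98.5% of informative reads, exon 4 in 99.4% and 99.4%, and exon 3 in 99.9% and 99.8%. For exon 5, reads with its long form or another end were not counted as informative. With those reads included, the short form was on 97.7% and 97.4% of the reads over exon 5. An annotated exon between exons 2 and 3, chr18:82564616-82564890, had 2 reads in replicate 1 and 0 in replicate 2. Fisher's exact test called no Mbp exon between the libraries, with adjusted p-values of 1.0 for each. Over all genes 7 of 32799 exons were called, or 0.0213%, by an adjusted p under 0.05 and a difference of at least 10 percentage points. The largest difference among exons 2, 5 and 6 was that of exon 6, at -1.24 percentage points (replicate 2 minus replicate 1).

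The 3 variable exons give 8 combinations, and every combination was seen on reads that joined classic exon 1 to exon 7, Golli reads and models with an unannotated end of exon 3 or 4 included. There were 3559 such reads in replicate 1 and 2512 in replicate 2. Exon 5 without exons 2 and 6 was on 72.2% and 73.9% of them, exons 5 and 6 on 15.8% and 13.9%, exons 2 and 5 on 8.23% and 8.12%, and all 3 exons on 1.85% and 1.91%. The 4 combinations that lack exon 5 were on 23 reads in replicate 1, of which 17 held none of the 3 exons, 2 held exon 6, 3 held exon 2 and 1 held exons 2 and 6. In replicate 2 they were on 28 reads, with 18, 6, 1 and 3 in the same order. Exon 2 alone was seen in replicate 1 only with an unannotated end of exon 4, and in replicate 2 on a Golli read, while Mbp-207, the annotated classic form with it, had 0 reads. The remaining 47 and 25 reads had an end of exon 2, 5 or 6 outside the annotated forms or held the long exon 5.

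**Figure D3:**
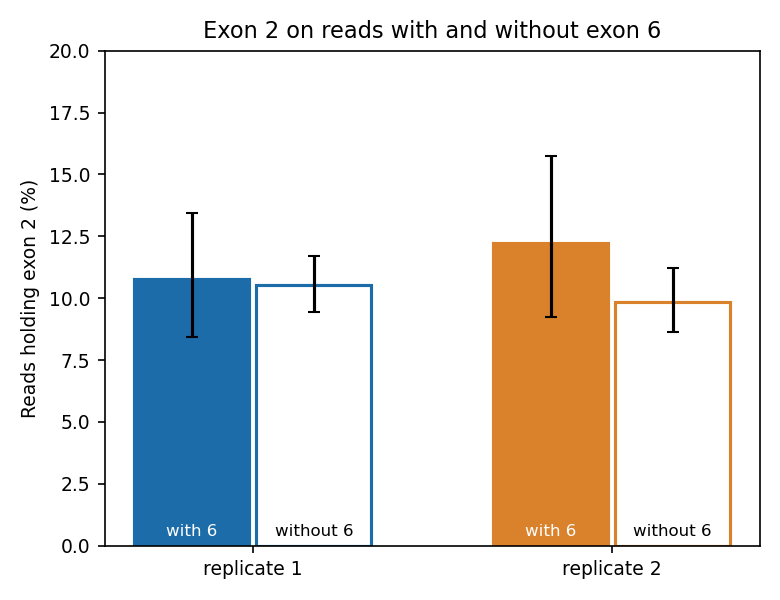
Percentage of reads holding exon 2, among Mbp reads that hold exon 6 (filled) and reads that lack it (open), in each library, with 95% Clopper-Pearson intervals. The intervals overlap in both libraries, at 10.8% and 10.5% in replicate 1 and at 12.2% and 9.85% in replicate 2.

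Exon 2 and exon 6 lie 17080 bases apart in the gene, and single reads covered both. In replicate 1, 68 reads held both exons, 310 held exon 2 alone, 564 held exon 6 alone and 2629 held neither. In replicate 2 these were 51, 208, 366 and 1903 reads. Exon 2 was on 10.8% of reads with exon 6 and 10.5% of reads without it in replicate 1, and on 12.2% and 9.85% in replicate 2. The odds ratio was 1.02 (0.763 to 1.36; Fisher's exact two-sided p = 0.887) in replicate 1 and 1.27 (0.901 to 1.78; p = 0.157) in replicate 2. The product of the 2 shares gives 66.9 and 42.7 reads with both exons, against the 68 and 51 counted. No departure from independent use was detectable at this depth. The intervals leave room for either direction, with odds from 0.763 to 1.36 times in replicate 1 and from 0.901 to 1.78 times in replicate 2.

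Exon 5 was missing from too few reads to resolve its pairing. For exons 2 and 5 the odds ratios were 0.467 (0.198 to 1.28; Fisher's exact p = 0.0887) in replicate 1 and 0.942 (0.331 to 3.69; p = 0.787) in replicate 2. For exons 5 and 6 they were 1.58 (0.551 to 6.19; Fisher's exact p = 0.497) and 0.594 (0.270 to 1.44; p = 0.177). The last pair lay on opposite sides of 1 in the 2 libraries. These tests are two-sided, on reads of a single library, and the 6 were not adjusted for each other.

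Reads that lacked exon 5 often changed at exon 4 as well. Exon 5 was skipped by 39 reads in replicate 1 and 38 in replicate 2, or 1.07% (0.764 to 1.46) and 1.48% (1.05 to 2.03) of the reads over it. Of these, 10 and 12 ended exon 4 at its annotated position, 15 and 18 ended it 20 bases further on, and 11 and 7 skipped exon 4 too. The long form of exon 5 was on 20 reads (0.550%) and 15 reads (0.584%).

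Golli reads were a small part of the gene's reads in this tissue. Models that began upstream of the classic start had 13 reads in replicate 1 and 11 in replicate 2, against 3572 and 2530 reads from the classic start. The Golli share of reads whose start could be assigned was 0.363% (0.193 to 0.619) in replicate 1 and 0.433% (0.216 to 0.773) in replicate 2, with a mean of 0.398% ± 0.0497 (SD, n = 2). Fisher's exact two-sided test between the libraries gave p = 0.682. A Golli read that began late, in classic exon 1 or after it, would not be counted as Golli, so the share may be too low. In CPM, Golli models held 9.95 and 8.43, with a mean of 9.19 ± 1.07, and classic models held 2734 and 1940, with a mean of 2337 ± 562.

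Most Golli reads were not spliced to the classic exons after exon 1. Mbp-205, which ends at chr18:82558703 in a 4384-base last exon that runs from just before the classic start into the first classic intron, took 10 of 13 reads in replicate 1 and 7 of 11 in replicate 2. It encodes 195 residues, with 29 arginines and lysines against 30 aspartates and glutamates, so it lacks the excess of basic residues of the classic products. Golli reads that ended in classic exon 7 numbered 3 in each library. In replicate 1 all 3 were Mbp-201, which joins the Golli exons to classic exons 1, 3, 4 and 7 and encodes 250 residues at 27.2 kDa. In replicate 2 the 3 reads were on 3 separate models outside the annotation, which held exons 1, 2, 3, 4 and 7, exons 1, 3, 4, 5 and 7, and exons 1, 3, 4, 6 and 7. The last Golli read of replicate 2 ended within the first classic intron.

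Unspliced reads were also found at the end of Mbp-205. A model of 2810 bases with 9 reads in replicate 1, and another of 1132 bases with 2 reads in replicate 2, ended at the same base, chr18:82558703, and lay within its last exon. Their starts fell after classic exon 1, so they were not counted as Golli reads. T cells and the thymus are also known for Golli RNA. Of 6 of their genes, Cd3g, Cd8a and Rag1 had 0 reads in both libraries, Cd3d and Cd3e had 1 read in all each, and Cd4, which other cells also express, had 14 reads in each library, a mean of 10.7 CPM.

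**Figure D4:**
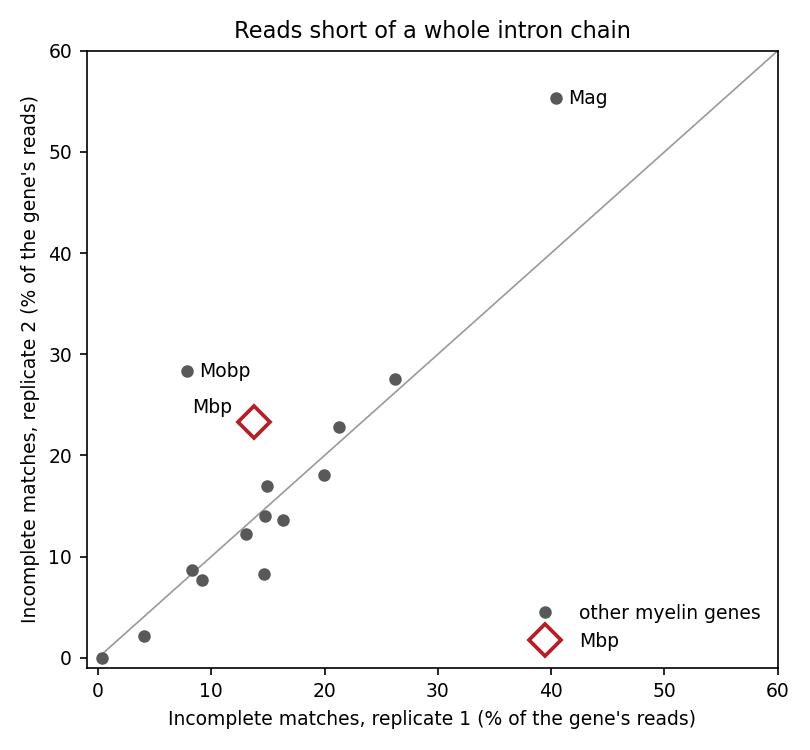
Reads that match only part of an annotated intron chain, as a percentage of the gene's reads, in replicate 1 (x axis) and replicate 2 (y axis), for Mbp (diamond) and 14 other myelin genes with at least 100 reads in each library; the line marks equal shares. Mbp lies above the line at 13.8% and 23.3%, and Mobp further above it at 7.84% and 28.3%.

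The libraries differed in how complete Mbp reads were. By the deposited classes, 83.7% of Mbp reads in replicate 1 and 74.5% in replicate 2 matched a known transcript, beside 71.9% and 67.7% over all genes. Incomplete matches made up 13.8% and 23.3% of Mbp reads, beside 13.7% and 15.8% over all genes. Most of them were reads on a single model that lies inside exon 7 alone, with 513 reads, or 12.3% (11.3 to 13.3), in replicate 1 and 731 reads, or 22.1% (20.7 to 23.5), in replicate 2. That model is listed with the whole of exon 7, so how far each read reached is not known here. Reads that joined classic exon 1 to exon 7 made up 85.3% (84.2 to 86.4) and 75.8% (74.3 to 77.2). Replicate 2 thus had fewer complete Mbp reads and more reads of the last exon alone, in share and in number.

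The share of incomplete matches was compared by Fisher's exact two-sided test for 6644 genes, a test added after seeing the data. Mbp had a difference of 9.54 percentage points (replicate 2 minus replicate 1) and an adjusted p of 3.47e-24, and it missed the limit of 10 points by which 7.21% of genes were called higher in replicate 2. Of 360 genes with at least 500 reads in each library, 20, Mbp itself among them, differed upward by at least 9.54 points. Among other myelin genes, Mobp, which encodes a basic protein of oligodendrocytes, had 7.84% and 28.3% (adjusted p = 3.72e-10), and Mag, of an adhesion protein next to the axon, had 40.4% and 55.3% (adjusted p = 0.167). Cnp had 8.29% and 8.71%, and Trf had 13.1% and 12.2%. Of 21 other myelin genes tested, the share was higher in replicate 2 in 8, lower in 12 and equal in 1, with 1 called higher (Mobp) and 0 called lower. Without Mbp reads inside exon 7 alone, the log2 ratio of Mbp between the libraries was -0.50 in place of -0.33. The 2 libraries thus stood further apart in the other Mbp reads than in all Mbp reads. Such reads were left out for Mbp only, while over all genes the share of reads on known transcripts was also lower in replicate 2 (71.9% and 67.7%).

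The annotation gives 5 distal ends within 12 bases, from chr18:82585626 to chr18:82585637, and 1 end at chr18:82584156, directly after the stop codon and 1481 bases short of the last distal end. Of the 11 classic transcripts, 6 are annotated with a distal end and 5 with the short one. Known rows carry the annotated ends whatever the read did, so the ends of the reads on Mbp-209, which is annotated with the short end, are not known here. Models outside the known class also mostly ended at an annotated base, with 677 of 679 reads in replicate 1 and 839 of 845 in replicate 2. Such ends may have been set by the annotation, so they are no independent evidence on where reads ended. Of the reads on these models, 668 (98.4%) and 837 (99.1%) lay on models that ended at a distal end, and 649 and 822 shared the end chr18:82585626. Most of these reads lay on the model of exon 7 alone. Without it, 155 of 166 reads (93.4%, 88.5 to 96.6) in replicate 1 and 106 of 114 (93.0%, 86.6 to 96.9) in replicate 2 lay on models with a distal end. The rest included unspliced reads upstream of exon 7, on models with 9 and 1 reads in replicate 1 and 2 reads in replicate 2. Each model is listed with a single end for all its reads, so these intervals do not measure the spread of read ends. Outside the known class, all 93 and 68 reads with a classic start lay on models that began at an annotated start. These starts, too, may have been set by the annotation.

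Splicing outside the annotation touched few reads. New combinations of splice sites made up 1.05% and 0.815% of Mbp reads and new splice sites 1.10% and 1.24%, beside 3.38% and 2.92%, and 2.96% and 2.81%, over all genes. Unannotated chains of introns numbered 70, of which 15 were found in both libraries with 61 of 94 and 42 of 70 reads, and 49 rested on a single read. Of 23 chains classed as new combinations, 18 held a splice site that the annotation of Mbp does not have, so the deposited class does not separate the 2 kinds cleanly here.

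The chain with most reads joined exons 1, 3, 4 and 7 with exon 4 ending 20 bases late and exon 5 skipped. It had 12 reads in replicate 1 and 14 in replicate 2, and its coding region is 13 bases shorter than that of Mbp-211, which shifts the frame. The next chains had exon 5 ending 4 bases late (12 and 4 reads) and exon 3 ending 4 bases late (9 and 6 reads), both with 4 extra bases. A chain with exon 3 ending 45 bases late and exon 4 skipped had 6 and 2 reads and adds 9 bases, a multiple of 3. A chain with an intron inside the untranslated part of exon 7, after which the exon resumed 506 bases from its annotated start, had 5 and 1 reads. Finally, a chain classed as genomic joined exon 1, cut 192 bases short, to a point 459 bases into exon 7, with 3 and 2 reads. These 6 were all the chains with at least 5 reads in total.

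Splice sites 4 bases beyond or within an annotated one recurred across exons. Of 46 sites outside the annotation, 4 lay at an offset of 4 bases, with 43 uses in replicate 1 and 31 in replicate 2. The site after exon 5 was used by 21 and 13 reads beside 3572 and 2517 at the annotated site, the one after exon 3 by 16 and 9, the one at the start of exon 7 by 4 and 8, and the one after exon 2 by 2 and 1. The site 20 bases after exon 4 had 15 and 18 uses.

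Few other models overlapped the locus. On the opposite strand there was 1 unspliced model over exon 7 in each library, with 1 read in replicate 1 and 2 in replicate 2, or 0.0240% and 0.0603% of the Mbp count. No model of another gene on the same strand had reads there. Genomic reads made up 0.336% and 0.121% of Mbp reads, beside 8.08% and 10.7% over all genes.

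**Figure D5:**
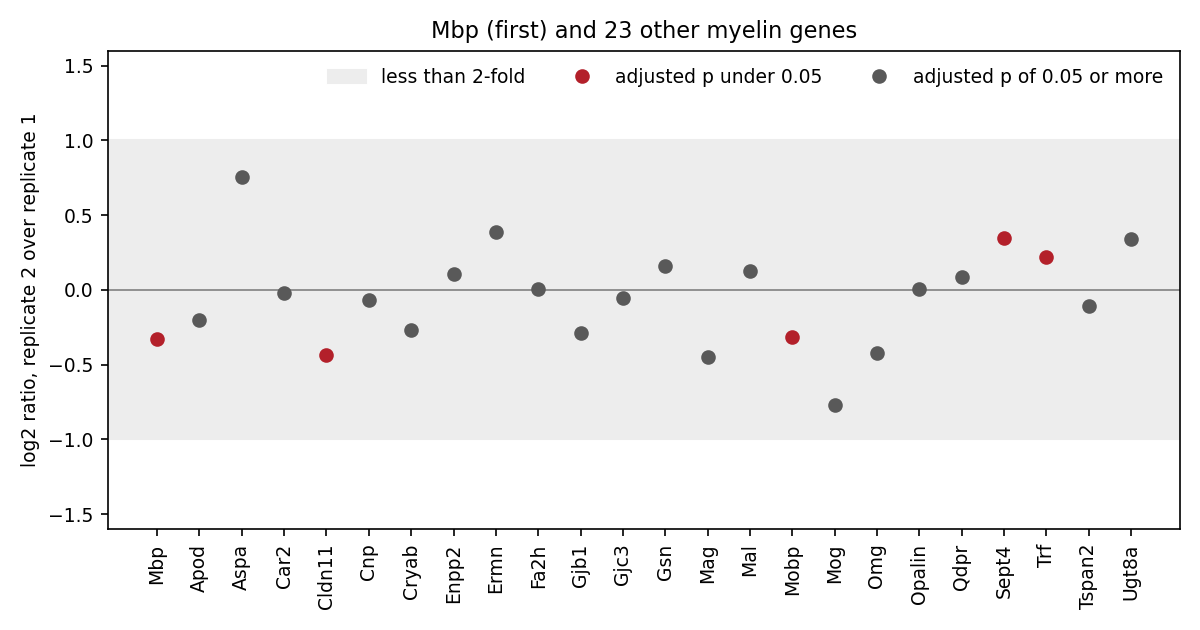
The log2 ratio of replicate 2 over replicate 1 for Mbp (first) and 23 other myelin genes in alphabetical order; the grey band holds differences under 2-fold and red points have an adjusted p under 0.05 (exact binomial test). All points lie within the band, with Mbp at -0.33 and Mobp at -0.32.

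Of 23 other myelin genes 0 were called in either direction, beside 5.44% of all genes lower and 1.61% higher. By the adjusted p alone 2 were lower in replicate 2 (Mobp and Cldn11) and 2 were higher (Trf and Sept4), beside 8.11% and 4.72% of all genes. These shares are near the background, and the median log2 ratio was -0.02, beside 0.00 over all tested genes. Mobp had 273 CPM in replicate 1 and 219 CPM in replicate 2, a log2 ratio of -0.32 close to that of Mbp (adjusted p = 0.0457). Trf, which encodes transferrin, had 790 and 919 CPM, a log2 ratio of 0.22 on the other side of 0 (adjusted p = 0.00527). Cnp, which encodes a myelin enzyme, had 573 and 546 CPM, and Qdpr, of tetrahydrobiopterin metabolism, 376 and 399 CPM. Summed over the list, these genes had 4078 and 4099 CPM, or 4089 ± 14.8 CPM (SD, n = 2).

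Transcription factors of oligodendrocytes were lower in replicate 2 in 2 of 7 tested members, beside 5.44% of all genes, and higher in 0. Olig2, a determinant of the lineage, had 91 reads in replicate 1 and 6 in replicate 2, and Nkx6-2 had 79 and 10. The log2 ratio of Olig1 was -0.66 (149 and 94 reads). Sox10, which acts on the promoters of myelin genes, had 24 and 13 reads. The other 3 tested factors had log2 ratios above 0, at 0.04 for Zfp24 (36 and 37 reads), 0.55 for Tcf7l2 and 0.32 for Sox8, and were not called. Myrf, needed for myelin gene expression, had 2 reads in each library, near the limit of detection. The median log2 ratio of the 7 was -0.66.

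Of 8 genes whose products are known to act on Mbp RNA, 1 was called lower and 0 higher, beside 5.44% and 1.61% of all genes, with a median log2 ratio of -0.04. Hnrnpab, which binds the transport element in the untranslated region, had 158 reads in replicate 1 and 26 in replicate 2. Hnrnpk had 571 and 569 reads and Hnrnpa1 365 and 378. Hnrnpa2b1, whose product binds the same element, had 162 and 204 reads. Kif1b, a kinesin needed for Mbp RNA transport in zebrafish, had 316 and 299, and Qk, which stabilises Mbp RNA, had 96 and 130.

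Markers were those of cortical tissue with central myelin. Of 6 oligodendrocyte markers, all also in the list of myelin genes, all had reads, with sums of 756 and 627 CPM. Among them 0 were called, beside 5.44% of all genes lower and 1.61% higher. By the adjusted p alone 2 were lower in replicate 2 (Mobp and Cldn11) and 0 higher, beside 8.11% and 4.72% of all genes. Their median log2 ratio was -0.37, while Ermn (0.38) and Opalin (0.00) were not below 0. The 6 precursor markers all had reads and summed to 236 and 163 CPM. Most of that difference lay in Bcas1, at 188 and 126 CPM, and 1 of the 6 was called lower (C1ql1, 21 and 3 reads; 5.44% of all genes), while Pdgfra, Gpr17 and Enpp6 had log2 ratios above 0. Of 4 Schwann cell genes, Prx had 1 and 0 reads and Ncmap 2 and 0, while Pmp22, which other cells also express, had 64 and 73. Of 4 excitatory neuron markers, summing to 481 and 652 CPM, Slc17a7 was lower in replicate 2 (130 and 36 reads). Their part in the difference of Mbp was not tested.

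Of the 42 other nuclear genes within 2-fold of the mean CPM of Mbp, the 5 with the nearest log2 ratio between the libraries were Cpe (-0.38), Ptgds (-0.38), Actg1 (-0.46), Tubb2a (-0.49) and Ppia (-0.17). The measure rests on 2 libraries only. Ptgds, the gene of a prostaglandin synthase of the brain, had 6680 and 5118 reads, and Cpe, of carboxypeptidase E, had 3395 and 2604.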

How the data were processed

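Total RNA was sequenced in long reads, in 2 libraries of 1 group. The authors deposited raw counts of reads per transcript model and library. Per the file headers, the deposited tables also give other values (exon number and length of each model), and the deposited annotations give feature positions on mm10, from GENCODE M21 with models added per library by TALON, which sorts long reads by their match to an annotation. Not given in the sources used here: the aligner and the program versions. Library totals were 1306424 and 1304133, and 1 read stood for 0.765 and 0.767 CPM.

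Counts were summed per gene and scaled to CPM. Genes with at least 10 counts were compared by an exact binomial test, with 0.5 counts added for log2 ratios. Exons needed 20 informative reads, and leading transcripts 20 known reads, in each library. An exon counted as included with both ends exact. A start was classic within exon 1 or up to 100 bases before it. Calls needed an adjusted p under 0.05, and 2-fold or 10 percentage points where stated. Replicates differed beyond sampling noise (chi-square per degree of freedom 7.06 over gene counts), a spread that the binomial test does not allow for. Both were kept, as the group has no other library. With 1 group edgeR and DESeq2 gave only alternative normalizations. The binomial and Fisher tests were checked on simulated counts with counting noise only, which does not cover the spread between these libraries. Protein sizes were computed from M21 transcripts.

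All known Mbp transcripts are named, and chains outside the annotation with at least 5 reads in all. The 5 most similar genes have a mean CPM within 2-fold and the nearest log2 ratio. From each list up to 4 most abundant members were to be named. Mobp, Mag, Cldn11, Hnrnpab and the marker genes named were added for their values, and Sox10, Myrf, Qk, Tcf7l2 and Sox8 for their roles or to complete a list. A few list members are not reported here and are left out of the counts, sums and plots of their lists. Members and lists were chosen with earlier results of these data known. Python 3.11.15, SciPy 1.17.1, pandas 2.3.3, Biopython 1.88, R 4.3.3, edgeR 4.0.16 and DESeq2 1.42.0 were used.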

Additional observations from a re-analysis of the deposited data

How the results depend on the processing

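No paired analysis was possible because the libraries form a single group. Of 66 alternative values, 57 kept their direction and call, or moved by less than the limits set, 8 moved further and 1 turned direction. On known rows the difference between the libraries (replicate 2 minus replicate 1) was -0.0914 points for exon 2 and -0.170 points for exon 5, against -0.356 and -0.410 over all rows, with an adjusted p of 1.0 in each. On known rows only, Mbp had 2283 CPM, the Golli share was 0.328%, exon 5 inclusion was 99.8% and 1 exon was called over all genes in place of 7. Exon 5 inclusion was 99.2% on models with at least 2 reads and 99.0% on models with the first and last classic exon. Over all genes, 19 exons were called when any overlapping exon counted, and 13 when exons without both forms were left out, an alternative added after seeing the data. The odds ratio of exons 2 and 6 in replicate 1 was 0.995 on models with at least 2 reads (p = 1.0, Fisher's exact test), on the other side of 1 from 1.02. By definition the known rows leave out 679 reads in replicate 1 and 845 in replicate 2, which lowers the level. Among them were the 15 and 18 reads that skipped exon 5 and ended exon 4 20 bases late. Beyond that, the cause of these shifts was not tested.

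Without replicate 1 or replicate 2, the level of Mbp ranged from 2541 to 3193 CPM, the Golli share from 0.363% to 0.433%, exon 2 inclusion from 10.3% to 10.6%, exon 5 from 98.5% to 98.9%, exon 6 from 16.5% to 17.7%, the leading share from 72.9% to 74.7% and the known share from 74.5% to 83.7%. The log2 ratio of Mbp was -0.35 with TMM factors, -0.33 with DESeq2 size factors and -0.50 on known rows, below 2-fold in each. Depth limits the Golli and rare forms, which rest on under 20 reads each per library.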
